A study of Homo sapiens with 24 samples.

Results

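The arrays described here are 9 of the 24 in a series on RT112 cells, a human line grown from a bladder cancer, and they were chosen by measured values of 4 genes and not by their titles. All 9 have high signal for TACC3. On 3 of them, called the marked arrays here, the brighter of the FGFR3 probe sets was low while the dimmer one reached its highest values of the series. On the other 6, called the unmarked arrays, the brighter FGFR3 probe set was high, ARMCX3 was expressed and GAS1 was dim. A probe set is a group of short probes on the array whose signals are combined into 1 value for a transcript.

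The series asked which genes respond when FGFR3 is depleted with short hairpin RNAs. RT112 cells had been transduced with a doxycycline-inducible hairpin against EGFP, the control target, or with 1 of 3 hairpins against FGFR3 named 2-4, 4-1 and 6-16. All of these cells grew in medium with 1% FBS for 48 h, without doxycycline or with 1 µg/ml of it, and each of the 8 labelled groups has 3 arrays. The sources used here do not say whether a line was a pool or a clone, nor whether the 3 arrays of a group came from separate cultures.

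The marked arrays are labelled 2-4 without doxycycline replicate 3, 6-16 without doxycycline replicate 1 and 6-16 without doxycycline replicate 3, and values for them are given in that order below. The unmarked arrays are labelled 2-4 with doxycycline replicate 1, 2-4 without doxycycline replicate 1, 4-1 with doxycycline replicate 3, 6-16 with doxycycline replicate 1, and EGFP with doxycycline replicates 1 and 2. All 3 marked arrays are thus labelled as untreated, against 1 of the 6 unmarked arrays, and the part of the labelled treatment in the differences was not tested. Both sets mix hairpins, and the library labelled 6-16 without doxycycline replicate 2 lies in neither. The FGFR3 values went against the titles across the series: the 9 arrays low in TACC3 and in the dimmer FGFR3 probe set include 3 labelled as EGFP controls. For this reason the sets are named below by what was measured, and every title is given as a label only.

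FGFR3 is a receptor tyrosine kinase that is activated by fibroblast growth factors and signals through the RAS and ERK pathway; activating changes of it are common in tumours of the urothelium, the lining of the bladder. RT112 is known for a gene fusion in which the kinase-bearing part of FGFR3 is joined to the coiled-coil end of TACC3, a protein of the mitotic spindle. A fusion transcript of this kind carries the end of TACC3 in place of the end of FGFR3. The sources used here do not place the FGFR3 probe sets along the transcript, so they are told apart by brightness: the brighter read above the dimmer on all 24 arrays.

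The values that chose the arrays are a description and support nothing further. TACC3 was 12.62, 12.50 and 12.50 on the marked arrays and between 11.83 and 12.12 on the unmarked ones (log2 expression throughout). The brighter FGFR3 probe set was 11.42, 11.43 and 11.36 on the marked arrays and 11.92 to 12.08 on the unmarked ones. The dimmer probe set went the other way, at 11.14, 11.03 and 11.20 against 10.34 to 10.67. Thus the marked arrays held the highest TACC3 and dimmer-set values of all 24 arrays together with a low brighter set. A low brighter set was shared only with 3 arrays outside both sets, at 11.13 to 11.34, on which TACC3 was 11.31 to 11.43 and the dimmer set was 9.19 to 9.29. Arrays low on the brighter set are called FGFR3-low, and those 3 are the TACC3-low FGFR3-low arrays. ARMCX3, an X-linked armadillo-repeat gene, was at 9.45 to 9.48 on the marked and 9.50 to 9.65 on the unmarked arrays, and GAS1, a growth-arrest membrane protein, was dim on both, at 6.44 to 6.51 and 6.35 to 6.49. The nearest values on the sides of the TACC3 threshold were 11.43 and 11.82, those for the brighter FGFR3 set were 11.43 and 11.83, those for ARMCX3 were 4.93 and 9.45, and those for GAS1 were 6.54 and 8.52.

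**Figure D1:**
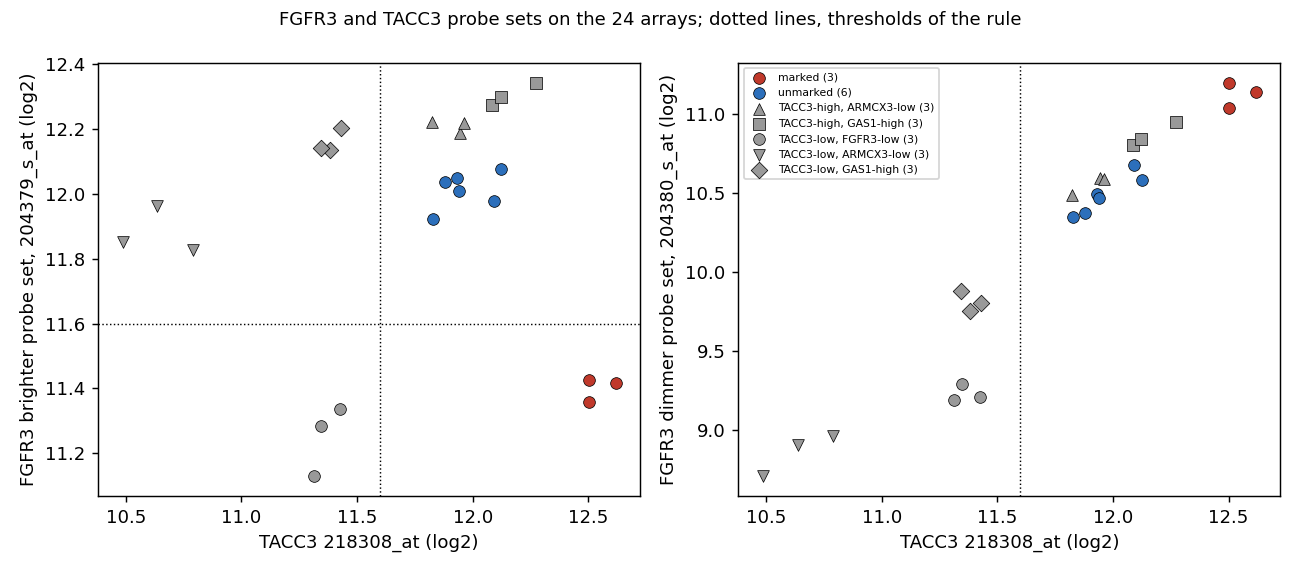
Each point is 1 of the 24 arrays; the x axis gives TACC3 and the y axes give the brighter (left) and the dimmer (right) FGFR3 probe set, all in log2 expression, with the thresholds of the selection as dotted lines. The 3 marked arrays combine TACC3 of at least 12.50 and the dimmer FGFR3 set at 11.03 or above with the brighter set between 11.36 and 11.43, and the 6 unmarked arrays have the brighter set between 11.92 and 12.08.

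The 15 arrays in neither set fall into 5 sets of 3 by the same thresholds. Among TACC3-high arrays, 3 are ARMCX3-low and 3 are GAS1-high. Among the 9 TACC3-low arrays, 3 are FGFR3-low, 3 are ARMCX3-low and 3 are GAS1-high. Over 19775 genes the marked arrays correlated with each other at r between 0.9976 and 0.9982, with the unmarked arrays between 0.9940 and 0.9959, and with the TACC3-low FGFR3-low arrays between 0.9881 and 0.9898; these are correlations across genes, which are not independent replicates. For every marked array, the nearest other arrays were the remaining marked ones. Over all 15 arrays in neither set, the highest r of a marked array was 0.9937 to 0.9949. Some of those arrays were thus closer to the marked ones than the TACC3-low FGFR3-low arrays were. The RNA quality controls overlapped between the sets: the signal of the 3′ minus the 5′ probe set of ACTB was 0.70 to 0.97 on the marked and 0.73 to 0.94 on the unmarked arrays, and that of GAPDH was 0.22 to 0.29 and 0.23 to 0.27.

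Because the arrays were picked on their values, no p-value is given for any gene between the sets. A gene was counted as different when the means differed by at least 1 on the log2 scale, which is 2-fold, and when no marked array overlapped the unmarked ones. Of 19775 genes, 60 were different (0.303%): 18 were higher on the marked arrays (0.091%) and 42 were lower (0.212%). RNA was measured in bulk, so fewer cells that express a gene and less of its RNA per cell cannot be told apart. Each gene past 2-fold also met the condition on overlap. Separation without regard to size was common, with 1461 genes wholly higher (7.39%) and 3403 wholly lower (17.2%) on the marked arrays. That excess of lower genes depended on the scaling: the median gene differed by −0.03, and after centring each array on its median the counts were 2138 higher and 2413 lower, which moved the share of higher genes from 30.0% to 47.0%. A second quantile normalization gave 2191 and 2609, or 45.6%. Among the genes past 2-fold the split was 20 higher and 40 lower after centring and 22 and 40 after the second normalization.

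Promoter sequences are shown for 4 genes that differ strongly between the sets, 2 higher and 2 lower on the marked arrays because the number of CG pairs, the target of DNA methylation, is compared over the 60 genes next. No methylation was measured in these cells. Each is the 250 bases before the gene's start as RefSeq gives it for GRCh38.p14, read 5′ to 3′ on the gene's own strand, with every CG in capitals; a CG reads the same on both strands. AOC1 lies at chr7:150852267-150852516 on the plus strand and holds 4 CG, DMBT1 at chr10:122560504-122560753 on the plus strand and holds 3, CD109 at chr6:73695953-73696202 on the plus strand and holds 11, and PYCARD at chr16:31202761-31203010 on the minus strand and holds 16.
AOC1: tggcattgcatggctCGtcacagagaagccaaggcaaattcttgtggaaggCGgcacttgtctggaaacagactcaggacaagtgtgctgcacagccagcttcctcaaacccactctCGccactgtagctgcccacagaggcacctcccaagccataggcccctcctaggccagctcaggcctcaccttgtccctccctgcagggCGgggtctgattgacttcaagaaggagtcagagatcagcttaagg
DMBT1: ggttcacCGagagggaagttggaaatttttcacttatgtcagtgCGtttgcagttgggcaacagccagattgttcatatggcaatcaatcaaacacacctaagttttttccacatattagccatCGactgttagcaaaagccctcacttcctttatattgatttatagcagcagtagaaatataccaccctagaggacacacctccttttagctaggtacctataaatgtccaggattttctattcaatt
CD109: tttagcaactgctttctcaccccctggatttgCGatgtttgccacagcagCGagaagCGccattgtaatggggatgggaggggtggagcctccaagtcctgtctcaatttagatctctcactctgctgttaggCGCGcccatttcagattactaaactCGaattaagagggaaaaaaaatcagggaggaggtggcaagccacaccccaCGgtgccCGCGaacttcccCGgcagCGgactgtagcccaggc
PYCARD: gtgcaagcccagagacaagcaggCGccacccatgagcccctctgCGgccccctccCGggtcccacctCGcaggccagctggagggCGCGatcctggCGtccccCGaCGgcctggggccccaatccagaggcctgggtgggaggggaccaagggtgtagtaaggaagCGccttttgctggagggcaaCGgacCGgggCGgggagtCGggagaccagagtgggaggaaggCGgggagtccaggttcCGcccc

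Over a window from 250 bases before to 50 after the start, CG counts could be had for 48 of the 60 genes. The 14 genes higher on the marked arrays had a median of 5.5 CG, and 5 of them (35.7%) had 20 or more. The 34 lower genes had a median of 24 CG, and 19 of them (55.9%) had 20 or more. All 15384 measured genes with a promoter in the table had a median of 22 CG, with 56.9% at 20 or more, and all 35116 promoters of the table had a median of 14, with 41.2%. The lower genes were thus close to the measured genes as a whole and the higher ones had fewer CG, which is a description of a small list.

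The genes lowest on the marked arrays relative to the unmarked ones included a co-receptor of the TGF-beta pathway, an inflammasome adaptor, a heparin-binding growth factor and a collagen chaperone. CD109, a membrane-anchored glycoprotein that restrains TGF-beta receptors, read 4.98, 4.98 and 4.83 on the marked arrays (mean 4.93 ± 0.09, SD, n = 3), and its lowest, median and highest values on the unmarked ones were 7.12, 7.46 and 7.69 (mean 7.43 ± 0.24, SD, n = 6). Its mean was therefore 5.67-fold lower (−2.50 log2), and the marked arrays were the lowest of all 24, the other 15 lying between 5.11 and 8.97. PYCARD, the adaptor that links inflammasome sensors to caspase activation, read 7.04, 7.14 and 7.16 against 9.30, 9.47 and 9.63, a difference of −2.35 or 5.09-fold (SD 0.06, n = 3, and 0.13, n = 6). Only the TACC3-low FGFR3-low arrays were as dim for PYCARD, at 6.62 to 7.19, while the remaining 12 arrays read 9.48 to 10.91.

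Midkine (MDK), a secreted heparin-binding growth factor, was at 7.48, 7.74 and 7.52 on the marked arrays and at 9.68, 9.85 and 10.05 on the unmarked ones, a difference of −2.31 (SD 0.14, n = 3, and 0.15, n = 6). Here the unmarked arrays were the brightest of all 24, since the other 15 ranged from 7.25 to 9.54. LRRN1, a leucine-rich repeat membrane protein, read 5.47, 5.72 and 5.74 against 7.63, 7.89 and 8.01, a difference of −2.23 (SD 0.15 and 0.14). The ARMCX3-low arrays were lower still for LRRN1, at 3.58 to 3.89, so the marked level lay between. NAP1L5, an imprinted gene of the nucleosome assembly protein family, was at 5.41, 5.55 and 5.56 against 7.42, 7.71 and 7.89, a difference of −2.20 (SD 0.09 and 0.17). Its low level was shared with 9 of the other 15 arrays and its high level with the 6 GAS1-high ones.

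Further lower genes named by the size of their difference had varied roles. SERPINH1, the chaperone of collagen folding also known as HSP47, differed by −1.87, at 7.30, 7.39 and 7.39 on the marked arrays against 9.02, 9.20 and 9.56 on the unmarked ones. Its other arrays split in the same way as those for NAP1L5. IGFBP5, which binds insulin-like growth factors, differed by −1.92, at 6.46, 6.11 and 6.18 against 8.11, 8.16 and 8.26. The TACC3-low FGFR3-low arrays did not share this, as they read 9.09 to 9.47. TRIP6, a LIM-domain protein of focal adhesions, differed by −1.46, at 8.72, 8.78 and 8.72 against 10.13, 10.20 and 10.26. GABBR2, a subunit of the GABA-B receptor, differed by −1.41, at 8.63, 8.55 and 8.60 against 9.86, 10.01 and 10.14. PLSCR4, a phospholipid scramblase, differed by −1.45, at 5.48, 5.23 and 5.55 against 6.74, 6.83 and 7.05. All of these were separate between the sets, with gaps from 1.19 (PLSCR4) to 1.64 (IGFBP5) between the nearest arrays.

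Among lower genes of metabolism, FABP5, which carries fatty acids in epithelial cells, read 5.26, 5.50 and 5.12 on the marked arrays and 6.60, 6.84 and 7.06 on the unmarked ones, a difference of −1.55 (SD 0.19, n = 3, and 0.16, n = 6). The GAS1-high arrays were higher again, at 8.26 to 9.17, and the other 9 arrays were as dim as the marked ones, at 4.85 to 5.38. BDH2, a short-chain dehydrogenase, differed by −1.44, at 8.05, 8.12 and 7.76 against 9.36, 9.38 and 9.58. TMEM139 differed by −2.02, at 7.51, 7.72 and 7.53 against 9.49, 9.57 and 9.78, and FAM171B by −1.48, with means of 7.01 ± 0.10 (SD, n = 3) against 8.48 ± 0.08 (n = 6). PDCD6P1 differed by −1.96, at 6.91, 6.85 and 6.89 against 8.75, 8.84 and 8.97, and is uncertain because it is a pseudogene of PDCD6 whose probes may read the parent transcript.

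**Figure D2:**
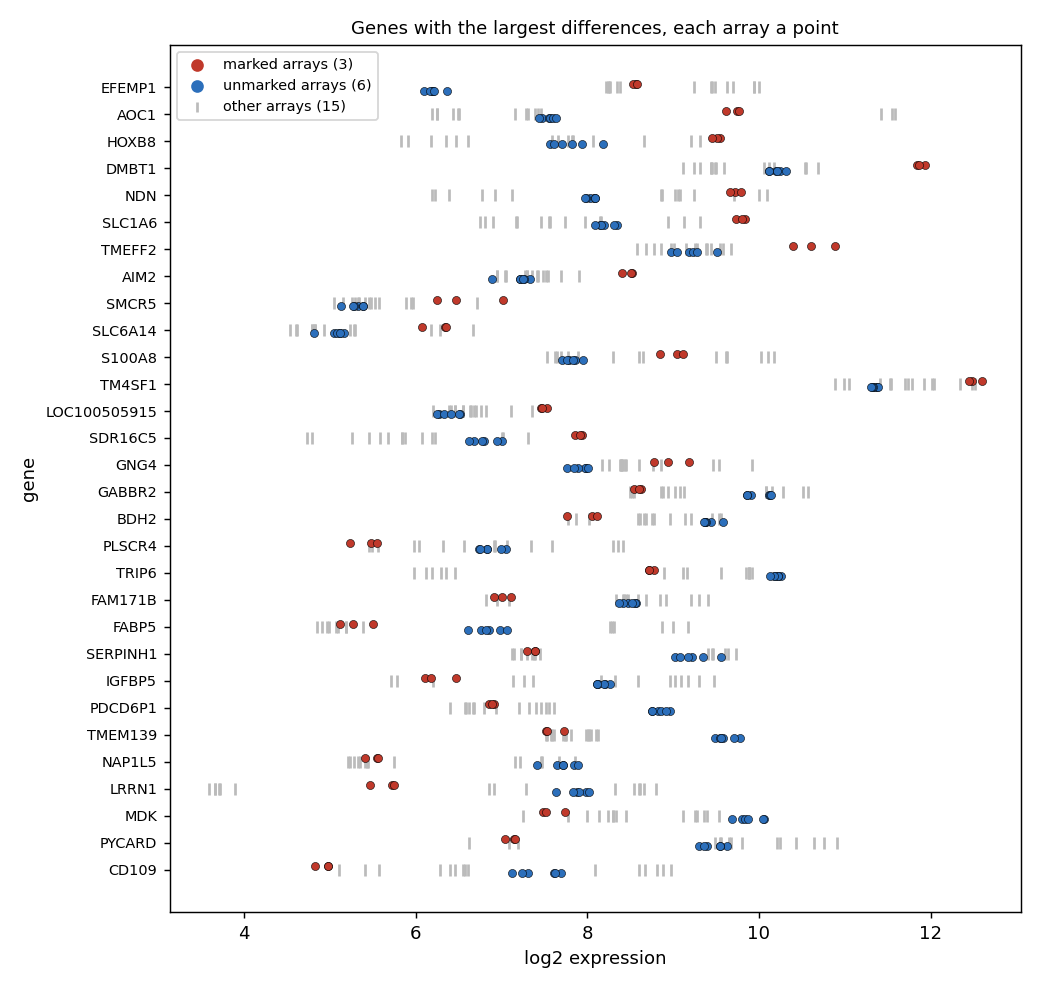
The log2 expression (x axis) of the 15 genes with the largest positive and the 15 with the largest negative difference between the sets is shown for each of the 24 arrays, with red points for the 3 marked arrays, blue points for the 6 unmarked arrays and grey ticks for the other 15. Red and blue points are apart for each gene; for EFEMP1 the blue points are the lowest of all arrays at 6.09 to 6.37, and for CD109 the red points are the lowest at 4.83 to 4.98.

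The remaining 27 lower genes differed by −1.40 to −1.02, and those named here were picked after their values were seen. ID4, an inhibitor of helix-loop-helix transcription factors, stood at 5.91, 5.98 and 5.82 on the marked arrays and at 6.96, 7.36 and 7.51 on the unmarked ones. For ID4 the marked arrays were the lowest of all 24 on its brightest probe set, and the other 15 ran from 7.09 to 9.01. PLAGL1, an imprinted zinc finger gene, stood at 5.18, 4.93 and 4.74 against 5.91, 6.30 and 6.50. Other members of this group were EPHA7, an ephrin receptor, at a difference of −1.22, PTX3, a secreted pattern-recognition protein, at −1.15, CNN3, an actin-binding calponin, at −1.14, PDGFD, a platelet-derived growth factor, at −1.12, and OLR1, a scavenger receptor for oxidized lipoprotein, at −1.05.

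The genes higher on the marked arrays included secreted and mucosal proteins, transporters and a homeobox factor. EFEMP1, also called fibulin-3, an extracellular matrix glycoprotein, read 8.56, 8.53 and 8.58 on the marked arrays (mean 8.56 ± 0.02, SD, n = 3) and 6.09, 6.19 and 6.37 as lowest, median and highest on the unmarked ones (mean 6.20 ± 0.09, SD, n = 6), which is 5.12-fold higher (2.35 log2). The unmarked arrays were the exception for EFEMP1, since all other 15 arrays read 8.22 or above. AOC1, the diamine oxidase that breaks down histamine and putrescine, read 9.61, 9.74 and 9.77 against 7.44, 7.56 and 7.64, a difference of 2.16 or 4.47-fold (SD 0.08, n = 3, and 0.08, n = 6). The TACC3-low FGFR3-low arrays were brighter still for AOC1, at 11.43 to 11.59, and the remaining 12 arrays read 6.19 to 7.46.

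HOXB8, a homeobox transcription factor, was at 9.54, 9.51 and 9.46 on the marked arrays and at 7.56, 7.76 and 8.18 on the unmarked ones, a difference of 1.70 (SD 0.04, n = 3, and 0.23, n = 6). DMBT1, a scavenger-receptor glycoprotein of mucosal surfaces, was at 11.84, 11.94 and 11.86 against 10.11, 10.21 and 10.31, a difference of 1.68 (SD 0.05 and 0.08). NDN, the imprinted gene for necdin, a growth-restraining protein, was at 9.72, 9.79 and 9.66 against 7.98, 8.06 and 8.09, a difference of 1.68 (SD 0.06 and 0.05). HOXB8 and DMBT1 were brightest of all 24 arrays on the marked ones, with the TACC3-low FGFR3-low arrays next, at 8.66 to 9.31 and 10.54 to 10.69. For NDN those TACC3-low arrays overlapped the marked level, at 9.71 to 10.09.

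Transport and membrane genes followed. SLC1A6, a glutamate transporter, differed by 1.59, at 9.74, 9.84 and 9.81 against 8.09, 8.18 and 8.34, and was brightest of all arrays on the marked ones. SLC6A14, an amino acid transporter, differed by 1.20, at 6.34, 6.07 and 6.35 against 4.81, 5.10 and 5.16. The levels of SLC6A14 are at the dim end of the scale. TM4SF1, a tetraspanin-like surface protein, differed by 1.16 at a high level, 12.48, 12.60 and 12.44 against 11.31, 11.34 and 11.39, and the TACC3-high arrays with high GAS1 overlapped the marked level at 12.34 to 12.52. TMEFF2, a membrane protein with an EGF-like domain, differed by 1.42 on its brightest probe set, at 10.61, 10.39 and 10.88 against 8.97, 9.21 and 9.51. The other 2 probe sets of TMEFF2 differed by −0.035 and 0.12. Both were dim, with marked means of 4.91 and 4.05, and both overlapped between the sets. The median over all 3 was −0.035, so the difference of TMEFF2 rested on 1 probe set.

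Of genes with immune or inflammatory roles, AIM2, a sensor of cytosolic DNA that acts through PYCARD, differed by 1.28, at 8.40, 8.52 and 8.51 against 6.89, 7.24 and 7.33. The marked arrays were the brightest of all 24 for AIM2, whereas PYCARD was lower on them. S100A8, a calcium-binding protein of squamous epithelium and neutrophils, differed by 1.19, at 9.05, 8.85 and 9.11 against 7.70, 7.81 and 7.95. Its other probe set differed by 0.22, with overlap. The ARMCX3-low arrays read higher for S100A8 than the marked ones, at 9.50 to 10.17. SMCR5, a noncoding transcript, differed by 1.28, and LOC100505915 by 1.11. SDR16C5, a retinol dehydrogenase, differed by 1.10, with means of 7.90 ± 0.05 (SD, n = 3) against 6.80 ± 0.15 (n = 6), and GNG4, a G-protein gamma subunit, by 1.05, at 8.94, 8.78 and 9.18 against 7.76, 7.94 and 8.01. The last 3 of the 18 higher genes, named after their values were seen, were CEACAM6, an adhesion molecule, at 1.04, GBP4, an interferon-induced GTPase, at 1.02, and EPHX4, an epoxide hydrolase family member, at 1.01.

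How far the 60 genes are shared with the other 15 arrays was described by placing each array on a scale with the unmarked mean at 0 and the marked mean at 1, and taking the median over the 60 genes. The marked arrays lie near 1 and the unmarked near 0 by construction. The TACC3-low FGFR3-low arrays, which were not used in the selection of the genes, lay at 0.68 to 0.82, with 38 to 40 of the 60 genes nearer the marked mean. The TACC3-high ARMCX3-low arrays lay at 0.72 to 0.77, with 35 to 36 genes nearer the marked mean, and the TACC3-low ARMCX3-low arrays at 0.49 to 0.53, with 30 to 32. The GAS1-high arrays lay with the unmarked ones, at 0.01 to 0.06 where TACC3 was high and at −0.10 to −0.07 where it was low. Of the 15 arrays, 8 lay nearer the marked than the unmarked mean. A position towards 1 was therefore not limited to FGFR3-low arrays.

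**Figure D3:**
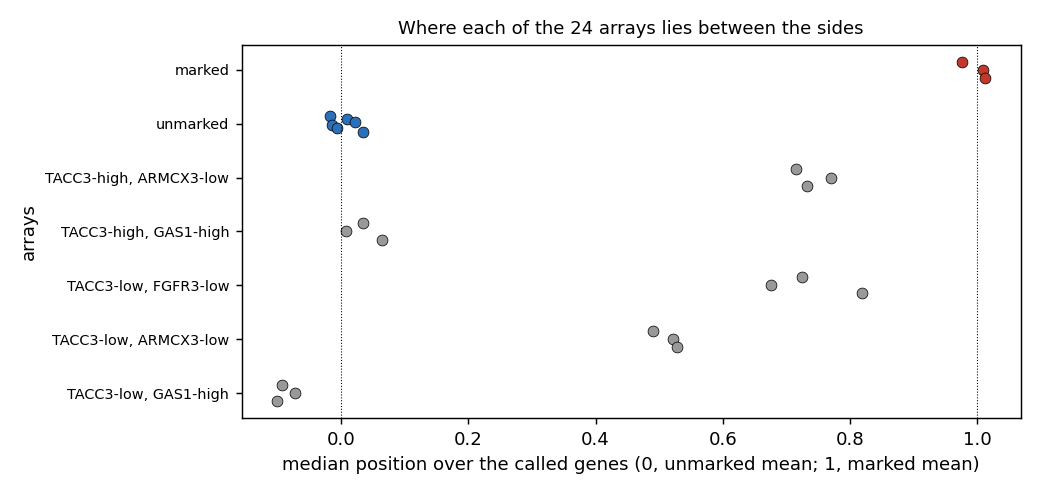
Each point is 1 of the 24 arrays, in rows by set, and the x axis gives its median position over the 60 genes between the unmarked mean (0) and the marked mean (1). The TACC3-low FGFR3-low arrays and the TACC3-high ARMCX3-low arrays lie between 0.68 and 0.82, and both GAS1-high sets lie between −0.10 and 0.06.

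The genes behind these positions differed. The counts that follow are over genes already chosen for a difference between marked and unmarked arrays, which favours every pattern named. Beside each count of arrays wholly apart stands the share over all 19775 genes, as a description. In 37 of the 60 genes all 3 TACC3-low FGFR3-low arrays lay nearer the marked mean, in 19 none of them did, and in 4 some did. No share over all genes was computed for nearness to a mean, so these counts cannot be set against genes at large. In 21 of the 60 genes (0.511% of all genes) the unmarked and GAS1-high arrays were wholly apart from the other 12, with NAP1L5, LRRN1, SERPINH1, FABP5 and 14 others higher on them and CEACAM6, GBP4 and NDN lower. In 19 of the 60 (0.374% of all genes) the 6 FGFR3-low arrays, marked ones included, were wholly apart from the other 18: AOC1, DMBT1, EPHX4, GBP4, HOXB8, NDN, SLC6A14 and SMCR5 were higher on them, and C12orf75, CD109, GPRASP3, HDX, HMX2, HTR2C, MDK, OSTM1, PYCARD, SEC63 and ZNF883 were lower. TACC3 was high on 3 of those 6 arrays and low on 3. In 14 of the 60 (5.66% of all genes) the 3 marked arrays stood apart from all other 21, among them AIM2, SLC1A6, SDR16C5 and TMEFF2 as higher and ID4 and TRPC1, a cation channel subunit, as lower. In 12 of the 60 (0.485% of all genes) it was the 6 unmarked arrays that stood apart from all other 18, among them CNN3, DPEP2, EPHA7, GSAP, MDK, PDCD6P1, PTX3, TMEM139 and TRIP6 as highest and EFEMP1 and GNG4 as lowest. A gene can meet more than 1 of these patterns.

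Of the 60 genes, 48 could be placed in the order of 15384 measured genes along the chromosomes, and only SEC63 and OSTM1 on chromosome 6 were neighbours. This pair was named after its values were seen. SEC63, a subunit of the machinery that moves new proteins into the endoplasmic reticulum, read 9.31, 9.33 and 9.37 on the marked arrays and 10.31, 10.39 and 10.46 on the unmarked ones, a difference of −1.06 (SD 0.03, n = 3, and 0.05, n = 6). OSTM1, a lysosomal membrane protein that partners a chloride transporter, read 7.08, 6.99 and 7.03 against 7.91, 8.08 and 8.30, a difference of −1.05 (SD 0.05 and 0.13). Both were 2.08-fold lower. The TACC3-low FGFR3-low arrays were also low, at 9.38 to 9.57 for SEC63, just above the marked arrays, and at 6.91 to 7.20 for OSTM1, overlapping them; their means of 9.49 and 7.01 stood against 10.49 and 8.01 on the other TACC3-low arrays.

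Further probe sets of this pair ran the same way. The other 4 of SEC63 differed by −0.97, −0.82, −0.83 and −0.14, and only the last overlapped between the sets. The other 3 of OSTM1 differed by −0.76, −0.45 and −0.20, all without overlap. The 16 measured neighbours of the pair differed by −0.45 to 0.24, and none of them passed 2-fold. SOBP, at −0.45, was the only neighbour beyond −0.25, and the genes directly on either side, SCML4 and OSTM1-AS1, differed by −0.064 and 0.063. Chromosome 6 held 8 of the 48 placed genes, all lower on the marked arrays, and 940 of the 15384 placed genes. Its median difference was −0.03, within the range of −0.05 to −0.01 over 22 chromosomes. Medians over windows of 31 neighbouring genes ran from −0.15 to 0.08 across those chromosomes. Chromosome 8 was not among the 22, so nothing is said of it here.

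**Figure D4:**
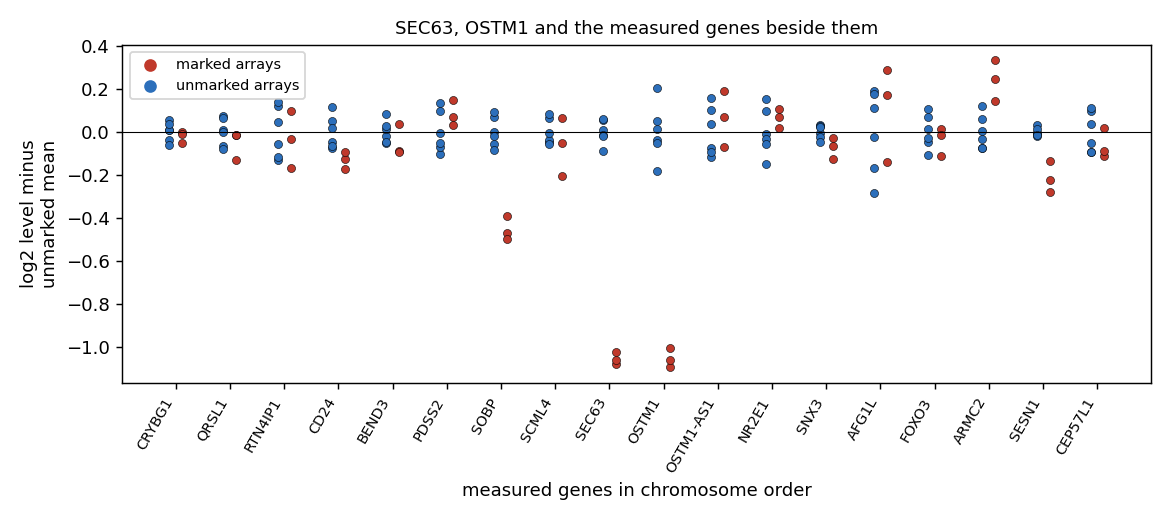
The log2 level minus the unmarked mean (y axis) is shown on the 3 marked (red) and 6 unmarked (blue) arrays for SEC63, OSTM1 and the 16 measured genes beside them in chromosome order (x axis). All 3 marked arrays lie about 1 below the unmarked mean for SEC63 and OSTM1, and the means of the neighbours lie between −0.45 and 0.24.

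A gene's value above is that of its brightest probe set, and other probe sets did not always follow. Of the 60 genes, 30 had further probe sets, 59 in all, of which 53 differed in the same direction, 40 did so without overlap and 19 passed 2-fold. CD109 rested on 1 of its 3 probe sets, as the others differed by −0.24 and −0.14. IGFBP5 rested on 1 of 6, the others differing by −0.24 to 0.15. EFEMP1 had further probe sets at 1.56 and −0.034. ID4 had further probe sets at −1.05 and −0.40 without overlap, and at −0.13 and −0.08 with overlap. Across all 41097 probe sets with 1 gene symbol, 125 differed by 2-fold without overlap (0.304%), 53 higher and 72 lower, and 46 of these belonged to 39 genes whose brightest probe set did not.

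Probe sets of MALAT1, an abundant nuclear long noncoding RNA that was picked out after its values were seen, differed in both directions. Of its 12 probe sets, 7 were higher and 5 lower on the marked arrays, with differences from −1.33 to 3.88. The probe set 228582_x_at read 11.25, 11.36 and 11.01 on the marked arrays and 6.68, 7.38 and 7.80 on the unmarked ones, while the brightest, 1558678_s_at, read 10.83, 10.67 and 10.79 against 10.67, 11.38 and 11.66. No direction can be given for the transcript as a whole. The TACC3-low FGFR3-low arrays lay between, at 8.94 to 10.92 on 228582_x_at, and the remaining 12 arrays spanned 7.14 to 10.86.

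Probe sets of the same gene differed by unlike amounts in other genes too, also picked out after their values were seen. In USP9X, an X-linked deubiquitinase, 230543_at read 9.76, 9.62 and 10.12 against 6.17, 6.94 and 7.36, a difference of 2.98, while its other 3 probe sets differed by −0.14 to 0.045. In NFIA, a nuclear factor, 229994_at differed by 2.09 and the other 6 by −0.12 to 0.13. EGFR, the receptor of epidermal growth factor, had 1565483_at and 1565484_x_at at 1.69 and 1.53, while its other 7 differed by −0.20 to 0.15. Where along each transcript these probe sets lie is not stated in the sources used here. INHBA, which encodes a subunit of activin, had 227140_at at 7.65, 7.54 and 7.48 against 4.67, 4.99 and 5.18, a difference of 2.61, and its brightest probe set differed by 0.96. LGR5, an R-spondin receptor of epithelial stem cells, had 213880_at at 4.70, 4.37 and 4.35 against 7.16, 7.33 and 7.49, a difference of −2.86, and its brightest at −0.33. For LGR5 the TACC3-low FGFR3-low arrays were as dim as the marked ones, at 4.37 to 4.61.

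The pathway genes around FGFR3 all differed by less than 2-fold on their brightest probe sets. Counts without overlap among them are to be read against 7.39% of all genes wholly higher and 17.2% wholly lower. Of 14 measured receptors and partners, 3 were higher and 2 lower without overlap, and these included TACC3 at 0.57 and FGFR3 itself at −0.61 on its brightest probe set, both set by the selection. FGFBP1, a carrier that releases FGFs from the matrix, was at 0.35 (11.34 ± 0.05, SD, n = 3, against 10.99 ± 0.03, n = 6), and FGFR2 was at −0.14. Of 10 FGF ligands, FGF19, an endocrine ligand, was higher without overlap at 7.32, 7.31 and 7.43 against 6.88, 7.03 and 7.15, and FGF1 was lower without overlap, at −0.16. Among 20 genes of ERK output and feedback, 5 were higher (7.39% of all genes) and 2 lower (17.2%) without overlap, with a median of 0.04. FOSL1, an AP-1 factor, was at 0.43, and DUSP5 and DUSP6, phosphatases that switch ERK off, were at 0.39 and 0.25. The ETS factors ETV4 and ETV5 were at 0.34 and −0.28. None of these passed 2-fold, and of 12 EGFR family receptors and ligands HBEGF was highest, at 0.33.

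Over all 29 gene lists, 457 of 498 genes were measured and 2 passed 2-fold, FABP5 and S100A8, against 0.303% of all genes. List medians ran from −0.15 to 0.09, and the median of all genes was −0.03. Under centring or a second quantile normalization the median changed sign in 6 lists, all with medians between −0.028 and −0.001 as deposited. The lists at the ends of the range are described next, and the others by their leading gene. Counts without overlap are to be read against 7.39% of all genes wholly higher and 17.2% wholly lower as deposited, and against 10.8% and 12.2% after centring.

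Among 20 genes of G2/M and mitosis, 13 were lower (17.2% of all genes) and 0 higher on the marked arrays without overlap, each by less than 2-fold, with a median of −0.15. TOP2A, a topoisomerase of dividing cells, read 12.23, 12.34 and 12.27 against 12.35, 12.64 and 12.72. BUB1 and TTK, kinases of the spindle checkpoint, both differed by −0.30, and MKI67, the Ki-67 proliferation marker, by −0.17 (10.66 ± 0.01, SD, n = 3, against 10.83 ± 0.02, n = 6). After centring the arrays, 8 of the 20 were lower (12.2% of all genes) and 0 higher with a median of −0.12, and after the second normalization 9 were lower and 1 higher with a median of −0.13. Of 20 genes of G1/S and DNA replication, 6 were lower and 0 higher, with a median of −0.04, but only 2 were lower and 1 higher after centring. MCM5, a subunit of the replicative helicase, led these at −0.25.

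Of 18 TGF-beta and BMP components, 8 were lower (17.2% of all genes) and 1 higher (7.39%) without overlap, with a median of −0.14; after centring 5 were lower (12.2%) and 1 higher. The lower members included ID1, ID2 and ID3, targets of BMP signalling, at −0.49, −0.87 and −0.47, the inhibitory SMAD7 at −0.40 and the ligand BMP2 at −0.36. ID2 was 7.79 ± 0.07 (SD, n = 3) against 8.66 ± 0.23 (n = 6). The higher member was INHBA, at 7.58, 7.61 and 7.67 against 6.59, 6.61 and 6.77 on its brightest probe set. Of 14 X-linked ARMCX and BEX family genes, 6 were lower and 1 higher, with a median of −0.13, led by TCEAL1 at 8.74, 8.74 and 8.70 against 9.07, 9.12 and 9.17. TCEAL1 is an elongation-factor-like gene. After centring, 4 of the 14 genes were lower and 1 higher, with a median of −0.10. ARMCX3, itself part of the selection, was lower without overlap on its brightest probe set, at −0.13.

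Of 20 genes of xenobiotic and aldehyde metabolism, 8 were lower and 5 higher without overlap (17.2% and 7.39% of all genes), and after centring 8 were lower and 7 higher. CYP4B1, a cytochrome P450 of the bladder epithelium, read 9.88, 9.86 and 9.88 against 10.34, 10.52 and 10.64, and was lowest of all 24 arrays on the marked ones. Aldehyde dehydrogenase ALDH3A1 was at −0.39, and CYP24A1, which inactivates vitamin D, at −0.50. In lipid synthesis, FASN, fatty acid synthase, was at 0.63 (12.33 ± 0.06, SD, n = 3, against 11.70 ± 0.14, n = 6) and ACLY, which makes cytosolic acetyl-CoA, at 0.35, while of 16 cholesterol synthesis genes 4 were higher and 1 lower, led by LSS, lanosterol synthase, at 0.31. FASN and ACLY share a list with FABP5, in which 5 of 17 genes were higher and 2 lower without overlap, the lower ones being FABP5 and PDK4, a kinase that restrains pyruvate dehydrogenase, at −0.45.

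Of 20 luminal urothelial genes, 5 were higher and 6 lower without overlap, against 7.39% and 17.2% of all genes. TFF1, a secreted trefoil peptide, was at 9.29, 9.19 and 9.36 against 8.28, 8.43 and 8.56, while UPK1A, a uroplakin of the bladder surface, was at −0.46 and FOXA1, a luminal pioneer factor, at −0.21. Of 18 basal and squamous genes, 7 were higher and 2 lower: S100A8 at 1.19 passed 2-fold, and its partner S100A9 was at 0.31, the basal keratin KRT5 at 0.48 and the stress keratin KRT16 at 0.41. The bladder lists thus held members of both directions. Of 17 epithelial adhesion genes, 5 were higher and 1 lower, led by the tight-junction claudin CLDN4 at 0.44, and of 15 mesenchymal genes 0 were higher and 5 lower, led by TGFBI, a matrix protein, at −0.29. After centring, 1 mesenchymal gene was higher and 4 were lower, and after the second normalization 2 were higher and 4 lower.

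**Figure D5:**
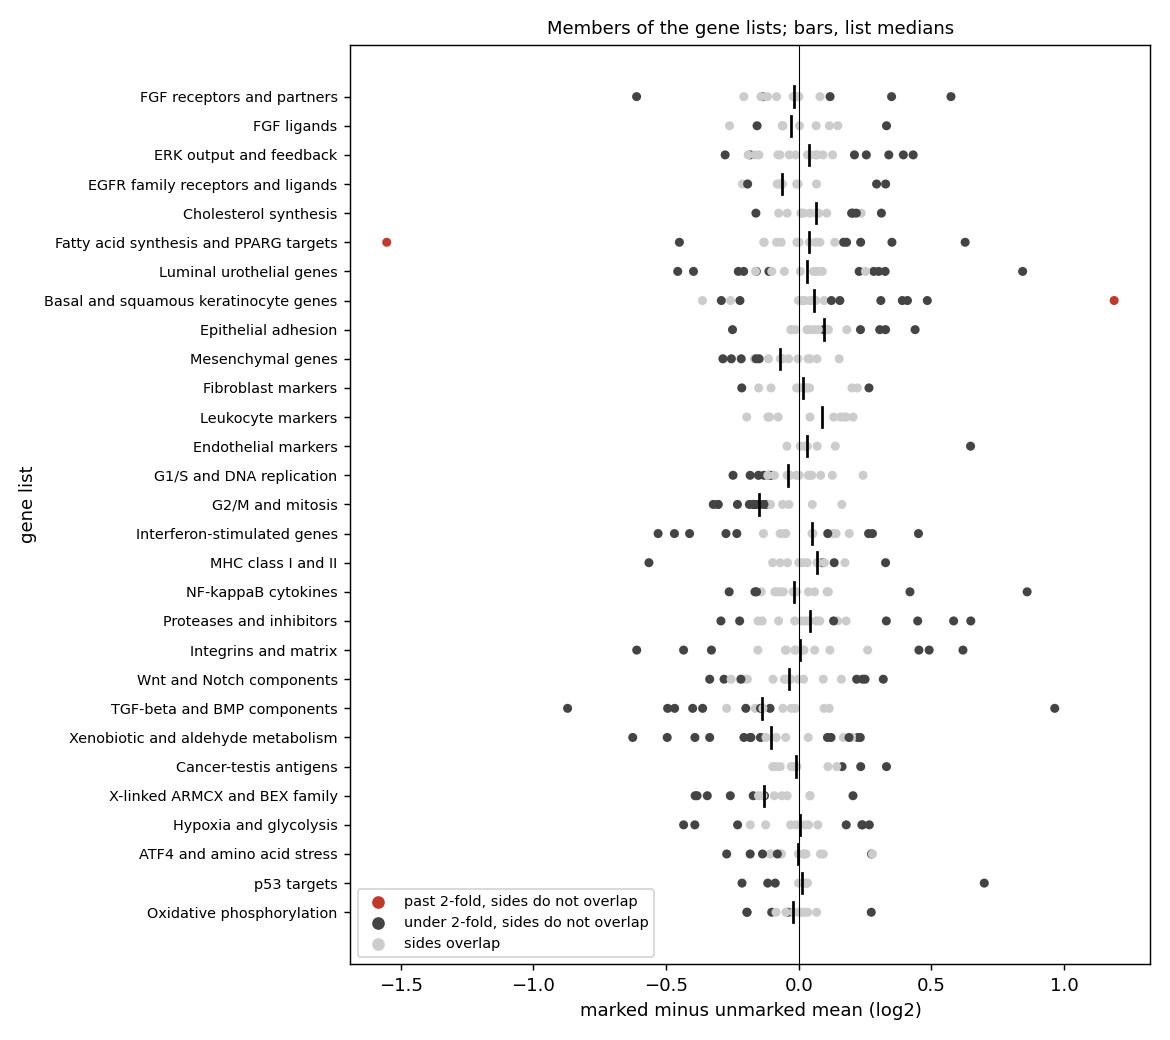
Each point is a measured gene of 1 of the 29 lists (rows), placed by its marked minus unmarked mean in log2 (x axis), with black bars for list medians, red points for genes past 2-fold, dark points for genes under 2-fold whose sets do not overlap and light points for genes whose sets overlap. FABP5 at −1.55 and S100A8 at 1.19 are the only red points, and the medians lie between −0.15 and 0.09.

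In the immune, matrix and stress lists no gene passed 2-fold. CXCL11, a chemokine induced by interferon, led the cytokines at 0.86 (5.97, 6.18 and 5.83 against 4.95, 5.14 and 5.31), a dim level. Of 19 interferon-stimulated genes 4 were higher without overlap (7.39% of all genes), such as BST2 at 0.45. In the same list 5 were lower (17.2% of all genes), such as IFI44L at −0.53 and IFITM1 at −0.47. HLA-DMA, which loads peptides on MHC class II, was at −0.56 and the peptide transporter subunit TAP2 at 0.33. The collagenase MMP1 was at 0.65, the basement membrane collagen COL4A1 at 0.62 and the matricellular CCN2 at −0.61. The mitochondrial BNIP3, of the hypoxia list, was at −0.43, and GDF15, a stress-induced cytokine listed with p53 targets, at 0.70. Leading genes of the last lists were TCF7L1 (Wnt) at −0.34, MAGEA1 (cancer-testis antigens) at 0.33, SLC7A11 (amino acid stress) at 0.28, whose sets overlapped, and UQCRC1 (respiratory chain) at 0.27.

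Most markers of luminal urothelium and epithelium were bright on the 9 arrays, and some were not. Their median levels were 13.25 for GATA3, 13.12 for KRT7, 13.50 for KRT19, 12.36 for UPK1B, 12.94 for EPCAM and 12.54 for CDH1, whereas the uroplakins UPK2 and UPK3A were at 8.54 and 7.27 and KRT20, of terminally differentiated cells, at 5.78. Of the basal keratins, KRT5 was at 11.90 and KRT14 at 6.17. Of the 7 fibroblast markers LUM was bright at 12.98, and it differed by 0.04 between the sets; COL1A1 was at 9.28 and the other 5 at 6.71 to 8.13. Leukocyte markers had medians of 5.34 to 8.50, with PTPRC at 5.72. Endothelial markers had medians of 7.54 to 9.39, and CDH5 differed by 0.65. Over the longer lists, 12 fibroblast markers differed between the sets by −0.21 (THY1) to 0.26 (POSTN, a matrix protein), with 1 higher and 1 lower without overlap, and 10 leukocyte markers by −0.20 (ITGAM) to 0.21 (TYROBP), with 0 in either direction. The median level over the fibroblast list was 7.21 to 7.28 on the marked and 7.10 to 7.24 on the unmarked arrays, and that over the leukocyte list 6.98 to 7.02 and 7.04 to 7.20; their part in the gene differences was not tested.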

How the data were processed

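Expression of RT112 cells was measured on 24 Affymetrix arrays. The deposited values are log2 expression of 54675 probe sets per array; per the submitters' processing notes the authors used RMA (background correction, quantile normalization and probe summary) and affy, whose versions are not given in the sources used here. Quantile normalization removes differences shared by most genes. An array has no read depth, and the number of arrays limits the precision.

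Gene symbols came from the platform annotation held by GEO: 41097 had 1 gene symbol, 1801 several and 11777 none, and only the first were used. Entrez identifiers of 41043 matched a RefSeq table of GRCh38.p14. The probe set with the highest mean over the 24 arrays stood for its gene, giving 19775 genes, with no filter on low values. Gene coordinates served only for promoters and for gene order.

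The brighter FGFR3 probe set is 204379_s_at, the dimmer 204380_s_at, and TACC3 is read by 218308_at. Arrays were selected by TACC3 and the brighter FGFR3 set (threshold 11.6 each), ARMCX3 (above 7) and GAS1 (below 7.5). The arrays, the gene lists and the comparisons were chosen with earlier results of these data known. Since measured values chose the arrays, no test was run; means, SDs, ranges, overlap and counts describe them. The named genes are the rule's genes, the listed cell type markers and the leading member of each list. They also include the 15 largest differences in each direction among genes past 2-fold without overlap. Other genes, such as SEC63, OSTM1 and further members of the lists, were chosen after their values were seen, whether or not this is said where they appear. Alternatives changed the probe set per gene, the filter, scaling, fold, overlap condition, TACC3 threshold, and left out each array in turn. Computations used Python 3.11.15, numpy 2.4.6, pandas 2.3.3 and matplotlib 3.10.9, and the counting step was tested on simulated data. The values of 1 gene that met the criteria are not reported here.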

Additional observations from a re-analysis of the deposited data

Results flagged for a closer look

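In the set of 6 unmarked arrays, the highest and lowest values of 90 items (the 60 genes past 2-fold, the leading list members and the probe sets of the selection) were checked for lying far from the rest, a check that singles out about 1 group in 20 by chance, or 4.5 of 90. There were 3 such cases. BDH2 read 9.58 on the array labelled 2-4 with doxycycline replicate 1 against 9.36 to 9.44 on the other unmarked arrays. SLC6A14 read 4.81 on the array labelled EGFP with doxycycline replicate 2 against 5.05 to 5.16 on the others. AIM2 read 6.89 on that same array against 7.21 to 7.33 on the others. In each case the marked arrays stayed on their own side of all 6 values.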

How the results depend on the processing

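No paired analysis was possible because the result comes from no test. At 1.5-fold in place of 2-fold, 76 genes were higher and 120 lower; at 4-fold, 2 were higher and 6 lower; over every probe set with 1 gene symbol, 53 were higher and 72 lower. With 1 array left out at a time, 17 to 21 genes were higher and 39 to 44 lower, 2 list genes passed 2-fold each time, and 6 to 8 of the other 15 arrays lay nearer the marked mean. The median over all probe sets gave TMEFF2 −0.035, against 1.42 on its brightest probe set. Of 1288 recomputed differences of named genes and medians of lists, 1241 moved by less than the spread between arrays and 46 by more, 28 of these under the median over probe sets and 5 with 1 array left out; the cause was not tested. A lower TACC3 threshold added 1 array to the marked ones, labelled 2-4 with doxycycline replicate 2, and a higher one selected the same arrays. Dim probe sets limit what can be said: a low log2 value after RMA does not tell absence from weak signal.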
